A study of Mus musculus with 8 samples.

Results

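Killer lectin-like receptors are C-type lectin-like surface proteins that natural killer (NK) cells and some T cells use to read MHC class I and related ligands on other cells. The genes described here are 10 members of the family, chosen by symbol among the 22549 genes of the count table: Klrk1, Klrb1c, Klrd1, Klrc1, Klrc2, Klre1, Klra1, Klra3, Klra7 and Klra9. They were measured in invariant natural killer T (iNKT) cells, lymphocytes that recognise lipids on CD1d through a nearly fixed T cell receptor, from skin (4 libraries) and from spleen (4 libraries). All 8 libraries came from mice of genotype CCR10+/EGFP, which carry an EGFP reporter on 1 allele of the chemokine receptor gene Ccr10, and no library without that allele was compared. The labels used here give neither strain, age, sex or treatment nor how the cells were isolated. Since they also do not tie libraries to individual mice, each p-value reflects only library-to-library spread, which may be technical. The libraries held 7221498 to 9791973 counts in skin and 7191131 to 9361237 in spleen. Skin was set against spleen to compare the transcriptomes of iNKT cells of the 2 tissues.

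The family is encoded in a cluster on mouse chromosome 6, where the RefSeq annotation of GRCm38.p6 orders the members as Klrb1c, Klre1, Klrd1, Klrk1, Klrc2, Klrc1, Klra9, Klra7, Klra3 and Klra1. Inhibitory members carry a tyrosine motif that recruits the phosphatase SHP1 (Ptpn6). Activating members lack it and signal through adaptors such as DAP10 (Hcst) and DAP12 (Tyrobp). The Ly49 (Klra) genes vary in number and allele between mouse strains, and NK1.1 (Klrb1c) is the classical surface marker by which iNKT cells of some strains were first recognised.

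Klrb1c had no transcript count in any skin library and was the only member called different between the tissues. Klrk1, Klrc1 and Klra1, the NKG2D, NKG2A and Ly49A genes, had counts in every skin library, as did Klrc2, the NKG2C gene, and the levels of Klrk1 and Klrc1 in skin lay above all spleen levels without passing the test. Klrd1, Klre1, Klra3 and Klra9 had counts in only 1 or 2 of the 4 skin libraries. All 10 members passed the filter on low counts, and 0 were higher and 1 was lower in skin at an adjusted p under 0.05 (edgeR quasi-likelihood test over 6920 genes, Benjamini-Hochberg). Among all 6920 genes, 1.85% were called higher and 3.58% lower (5.43% in either direction), so a single lower call among 10 members is not a result about the family as a group. At an unadjusted edgeR p under 0.05, 1 member was higher (Klrk1) and 1 lower (Klrb1c), where 353 and 507 of all 6920 genes were. That background also applies to the unadjusted counts of the gene lists below. DESeq2 and limma-voom called 0 members higher as well. The fitted log2 fold change of skin over spleen was above 0 for 6 members and below 0 for 4, with a median of 0.74, where the median over all genes tested was -0.29. The sign of the members' median turned with limma-voom (-1.18, with -2.06 over all genes tested). The edgeR median of the members is the same with Klrb1c at its bound, given with its values. Values of skin and spleen did not overlap for 3 members, 2 with skin above (6.11% of all genes tested) and 1 with skin below (13.4%).

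**Figure D1:**
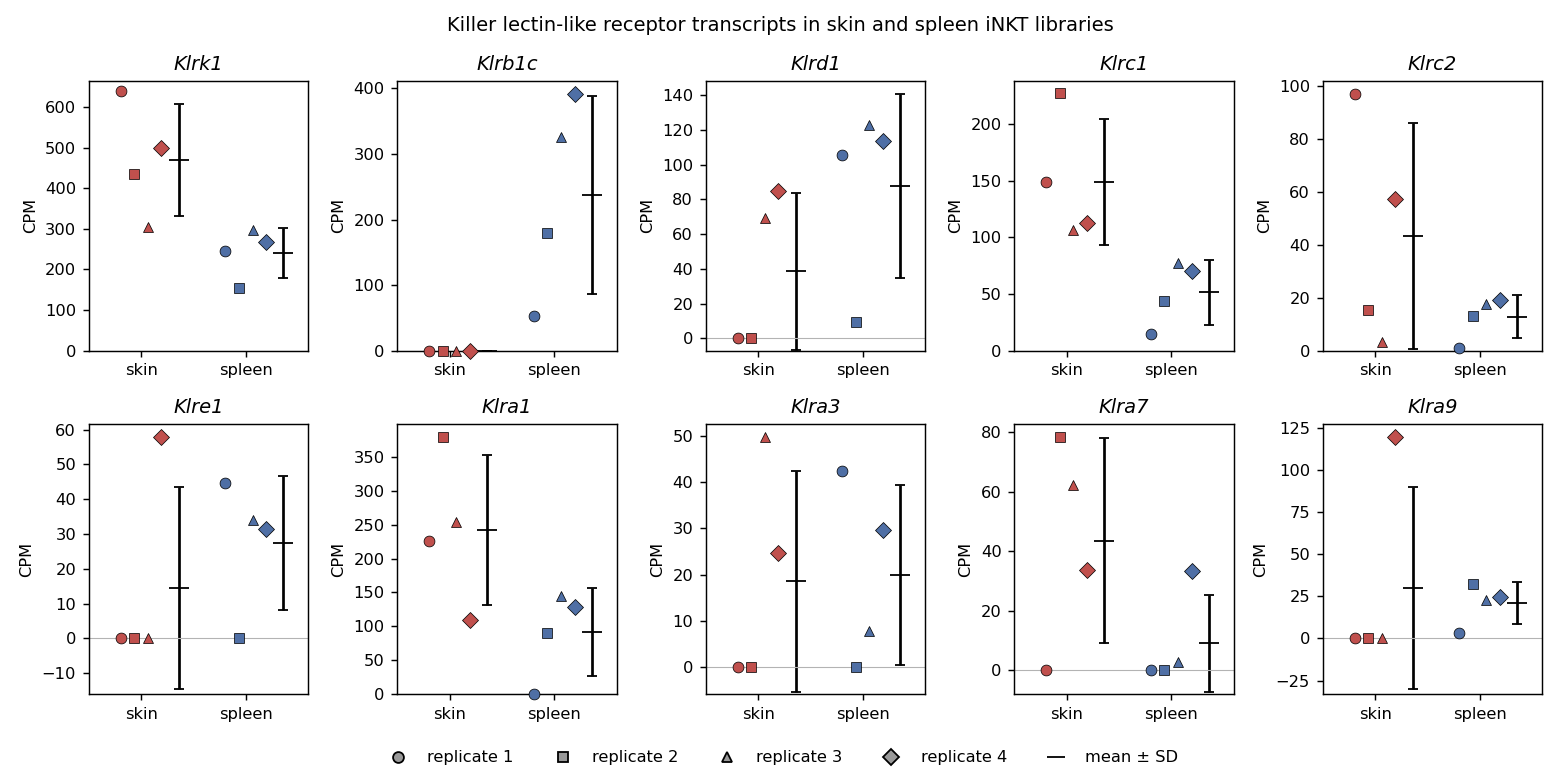
Level of each of the 10 receptor genes in CPM (counts scaled to library size, each panel with its own axis) in the 4 skin and 4 spleen libraries, with symbols for replicate numbers and black bars for mean ± SD. Klrb1c lies at 0 in all 4 skin libraries, while the lowest skin values of Klrk1 (306 CPM) and Klrc1 (106 CPM) lie above the highest spleen values (296 and 77.5 CPM).

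The promoter sequences of the members that mark these patterns are shown because Klrb1c on the one side and Klrk1, Klrc1 and Klra1 on the other stood at different levels in skin. Each is the 250 bases before the transcript start in RefSeq (GRCm38.p6, minus strand, read on the gene's strand), at chr6:128788642-128788891 for Klrb1c, chr6:129623865-129624114 for Klrk1, chr6:129678974-129679223 for Klrc1 and chr6:130386875-130387124 for Klra1. Capitals mark the core motif of RUNX transcription factors, TGTGGT or its reverse complement ACCACA, a factor family with roles in NK and T cell development.
Klrb1c: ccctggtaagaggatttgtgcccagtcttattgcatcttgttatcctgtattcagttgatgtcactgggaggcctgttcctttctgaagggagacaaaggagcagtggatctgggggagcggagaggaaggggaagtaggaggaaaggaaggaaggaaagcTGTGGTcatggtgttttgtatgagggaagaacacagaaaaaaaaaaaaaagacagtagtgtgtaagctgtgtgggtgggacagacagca
Klrk1: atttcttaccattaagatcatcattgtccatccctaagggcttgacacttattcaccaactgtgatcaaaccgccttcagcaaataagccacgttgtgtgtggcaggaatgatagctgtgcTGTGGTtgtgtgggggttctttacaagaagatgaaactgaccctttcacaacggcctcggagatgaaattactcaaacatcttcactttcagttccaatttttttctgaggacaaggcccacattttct
Klrc1: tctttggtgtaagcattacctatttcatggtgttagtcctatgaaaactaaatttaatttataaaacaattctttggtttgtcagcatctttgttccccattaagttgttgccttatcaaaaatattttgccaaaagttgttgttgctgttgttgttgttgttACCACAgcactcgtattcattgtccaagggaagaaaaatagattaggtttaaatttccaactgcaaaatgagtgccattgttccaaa
Klra1: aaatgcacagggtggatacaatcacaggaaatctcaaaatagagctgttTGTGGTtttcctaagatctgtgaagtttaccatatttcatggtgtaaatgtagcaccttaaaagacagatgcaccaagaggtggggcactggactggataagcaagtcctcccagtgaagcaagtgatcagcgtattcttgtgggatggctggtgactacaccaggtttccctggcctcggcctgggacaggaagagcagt
All 4 windows held 1 match. Of the 9 members with an entry, 6 held at least 1 match in the window of any of their starts. These were the 4 genes shown, Klrc2 and Klre1, the last at only 1 of its starts. Klra3, Klra7 and Klra9 held none. Of all 32851 promoter windows of the same length, 14.0% held a match. The core motif of T-box factors, TCACAC or GTGTGA, was found for 1 of the 9 members, Klre1, and in 12.3% of all windows. Klrc2, Klre1 and Klra7 had more than 1 window, so counts of members and shares of single windows are not like measures. Whether the members differ from all windows was not tested. Klrb1c, with no count in skin, and Klrk1, with counts in every skin library, both held the RUNX letters.

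Klrb1c encodes NK1.1 (NKR-P1C), an activating receptor. With CPM as counts scaled to library size, Klrb1c stood at 0 in skin replicates 1 to 4, against 53.1, 179, 326 and 392 CPM in spleen replicates 1 to 4. The groups did not overlap, and the spleen libraries themselves ranged widely. Its mean was 0 CPM in skin, against 237 ± 152 CPM in spleen (SD, n = 4 each), and taking 3 counts in each library as the lowest level that could be seen, Klrb1c was at least 613-fold lower in skin (adjusted p = 0.0187, edgeR). That bound allows for counting error but not for losses during library preparation or for how reads shared with other genes were divided. No count in any skin library was found for 3.34% of all genes tested. Over the same genes, a zero in 1 skin library occurred in 14.7% of cases where the remaining skin libraries averaged 100 to 200 CPM. The share was 4.29% where they averaged 200 to 400 CPM. The call was lost without spleen replicate 2, 3 or 4 (edgeR adjusted p = 0.0669, 0.113 and 0.111), while leaving out any other library kept it. In such bulk samples, fewer cells that express a gene and less RNA per cell cannot be told apart. The genes most like Klrb1c, by the mean absolute difference in log2(CPM + 1) over the 8 libraries, were Qars (0.387), Folr4 (0.393) and Plac8 (0.396). All 3 also had no count in skin, which choosing them by likeness favours, with spleen means of 146, 311 and 227 CPM.

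Klrk1 encodes NKG2D, an activating receptor for stress-induced MHC-like ligands that signals through DAP10. It had 640, 434, 306 and 499 CPM in skin replicates 1 to 4, against 245, 155, 296 and 267 CPM in spleen replicates 1 to 4. Every skin value lay above every spleen value, with skin replicate 3 and spleen replicate 3 close to each other. Its mean was 470 ± 139 CPM in skin, against 241 ± 61.2 CPM in spleen (SD, n = 4 each), so skin over spleen gave 0.96 ± 0.33 on the log2 scale (SE), which did not pass the test (edgeR unadjusted p = 0.0175, adjusted p = 0.186). The adjusted p of Klrk1 was 0.0502 in DESeq2 and between 0.113 and 0.364 in every other alternative run.

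Klrc1 and Klrc2 encode NKG2A, which is inhibitory, and NKG2C, which is activating. Both reach the cell surface as partners of CD94, the product of Klrd1, and read the MHC molecule Qa-1. Klrc1 had 149, 227, 106 and 112 CPM in skin replicates 1 to 4, against 14.6, 44.1, 77.5 and 70.3 CPM in spleen replicates 1 to 4. All skin values lay above all spleen values. The mean of Klrc1 was 149 ± 55.7 CPM in skin, against 51.6 ± 28.6 CPM in spleen (SD, n = 4 each), a log2 fold change of 1.52 ± 0.92 (SE), with an adjusted p of 0.7 by edgeR. It was not called. Klrc2 had 96.9, 15.2, 3.29 and 57.0 CPM in skin replicates 1 to 4, against 1.17, 13.2, 17.5 and 19.2 CPM in spleen replicates 1 to 4. Its values overlapped, and skin replicates 1 and 4 were the high ones. The log2 fold change of Klrc2 was 1.75 ± 1.62 (SE), with an adjusted p of 0.968 by edgeR. Klrc2 made up 39.4%, 6.27%, 3.01% and 33.7% of the summed Klrc1 and Klrc2 counts in skin replicates 1 to 4, against 7.41%, 23.1%, 18.4% and 21.4% in spleen replicates 1 to 4. This share had an SD of 18.6 percentage points in skin and 7.05 in spleen, a difference in spread that was not tested.

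How reads were divided between Klrc1 and Klrc2 bears on that share, since 75-base reads can match both. In the protein-coding transcripts of GENCODE M21, 25% of the distinct 75-base stretches of Klrc1 and 20.5% of those of Klrc2 also occurred in transcripts of another gene. Their coding sequences end in an identical run of 103 bases. The windows below, each 75 bases long, cover the first 25 bases of that run and the 50 bases before it (positions 583 to 657 of the Klrc1 and 565 to 639 of the Klrc2 coding sequence, chromosome 6), with the 4 differing bases in capitals.
Klrc1: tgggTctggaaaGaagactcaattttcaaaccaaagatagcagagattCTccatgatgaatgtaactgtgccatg
Klrc2: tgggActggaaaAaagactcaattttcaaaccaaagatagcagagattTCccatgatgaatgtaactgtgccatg
A single read from within the shared run matches both genes, and only its mate could place it. Expected counts were not whole in 8 of 8 libraries for Klrc1 and in 7 of 8 for Klrc2, with whole taken as within 0.005 of a whole number. This was also so in 5 of 8 libraries for Klrk1, which shares no exact 75-base stretch with another gene in GENCODE M21. Of the distinct 75-base stretches of Klrb1c, 13.2% also occurred in another gene of that release, most often Gm44511 (11.4%). Expected counts of Klrb1c were not whole in 2 of 8 libraries. GENCODE M21 is not of the build of the counts, and how far values that are not whole reflect sharing between genes was not tested.

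Klrd1, the CD94 gene, had 0, 0, 69.4 and 85.0 CPM in skin replicates 1 to 4, against 106, 9.22, 123 and 114 CPM in spleen replicates 1 to 4. Skin replicates 1 and 2 had no count, and spleen replicate 2 stood far below the other spleen libraries. The mean of Klrd1 was 38.6 ± 45.0 CPM in skin, against 87.9 ± 52.9 CPM in spleen (SD, n = 4 each), a log2 fold change of -1.19 ± 2.23 (SE), with an adjusted p of 0.998 by edgeR. It was not called. The skin libraries without a Klrd1 count were the ones with the highest Klrc1 values, 149 and 227 CPM. No 75-base stretch of Klrd1 occurred in another gene. Over all genes tested, a zero occurred in 30.4% of cases where the remaining skin libraries averaged 50 to 100 CPM. The genes most like Klrd1 over the 8 libraries were Rxrb, Srf and Pcyt2 (mean absolute differences of 0.355, 0.404 and 0.435 in log2(CPM + 1)). Each was at 0 in skin replicates 1 and 2 too, which choosing them by likeness favours, and none was called.

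**Figure D2:**
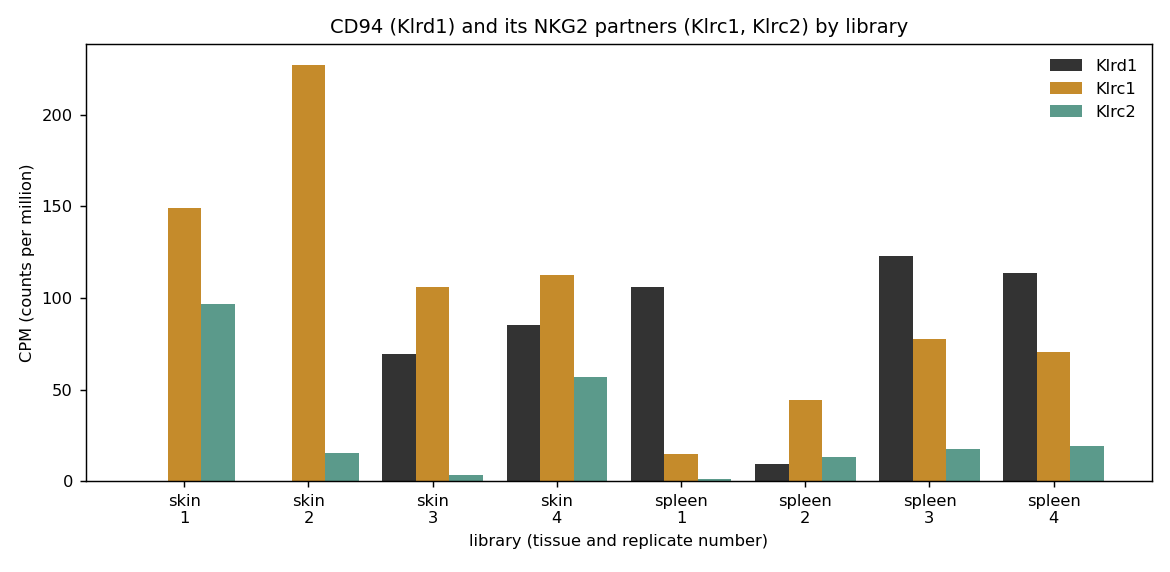
Level of Klrd1 (black), Klrc1 (ochre) and Klrc2 (green) in CPM in each skin and spleen library. Klrd1 has no count in skin replicates 1 and 2, where Klrc1 reaches 149 and 227 CPM. Heights are not per length, so they compare libraries within a gene.

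Klre1 encodes a mouse receptor that forms dimers with the products of Klri1 and Klri2. It had 0, 0, 0 and 57.9 CPM in skin replicates 1 to 4, against 44.7, 0, 33.9 and 31.4 CPM in spleen replicates 1 to 4. Its single skin value was the highest of all 8, and the groups overlapped. The log2 fold change was -0.93 ± 2.86 (SE), with an adjusted p of 0.998 by edgeR. Its partner gene Klri2 had 93.5 CPM in skin replicate 1, no count in the other 3 skin libraries, and 0, 0, 0.143 and 2.53 CPM in spleen replicates 1 to 4. Klri1 had no count in any library.

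The Klra genes encode the Ly49 receptors, which bind MHC class I in mice. Klra1, Klra3, Klra7 and Klra9 encode Ly49A, Ly49C, Ly49G and Ly49I, all inhibitory. Klra1 had 226, 380, 254 and 109 CPM in skin replicates 1 to 4, against 0, 90.4, 145 and 129 CPM in spleen replicates 1 to 4. Skin replicates 1 to 3 lay above every spleen library and skin replicate 4 within their range. The mean of Klra1 was 242 ± 111 CPM in skin, against 91.1 ± 64.9 CPM in spleen (SD, n = 4 each), a log2 fold change of 1.41 ± 1.44 (SE), with an adjusted p of 0.996 by edgeR. It was not called.

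Klra7 had 0, 78.5, 62.3 and 33.6 CPM in skin replicates 1 to 4, against 0, 0, 2.85 and 33.3 CPM in spleen replicates 1 to 4. The groups overlapped, and the log2 fold change was 2.27 ± 2.68 (SE), with an adjusted p of 0.998 by edgeR. Klra3 had 0, 0, 49.7 and 24.7 CPM in skin replicates 1 to 4, against 42.4, 0, 7.84 and 29.6 CPM in spleen replicates 1 to 4. Neither tissue stood above the other in Klra3, with means of 18.6 ± 23.8 CPM in skin, against 19.9 ± 19.5 CPM in spleen (SD, n = 4 each). Klra9 had 0, 0, 0 and 120 CPM in skin replicates 1 to 4, against 3.41, 32.5, 22.9 and 24.8 CPM in spleen replicates 1 to 4. It was present in every spleen library and in a single skin library, whose value exceeded all others. Klra3 and Klra9 were not called (log2 fold changes of -0.10 ± 2.55 and 0.52 ± 2.68, SE; edgeR adjusted p = 0.999 and 0.998), and the fitted direction of Klra9 turned to lower in skin without skin replicate 4, when all its skin values were 0.

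Summed over all Klra rows of the table, the level was 473, 551, 489 and 319 CPM in skin replicates 1 to 4, against 48.1, 130, 203 and 239 CPM in spleen replicates 1 to 4. The mean of this sum was 458 ± 98.6 CPM in skin, against 155 ± 84.5 CPM in spleen (SD, n = 4 each). All skin sums lay above all spleen sums, a difference that was not tested. Klra1 contributed 47.8%, 69%, 52% and 34.2% of this sum in skin replicates 1 to 4, against 0%, 69.5%, 71.5% and 53.7% in spleen replicates 1 to 4. Klra3 contributed 88.1% in spleen replicate 1, the library without a Klra1 count, and Klra9 contributed 37.6% in skin replicate 4. Sharing of 75-base stretches with other genes was 0.251% for Klra1, 5.71% for Klra7, 6.39% for Klra3 and 12.1% for Klra9, counted against the strain of the reference genome only.

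**Figure D3:**
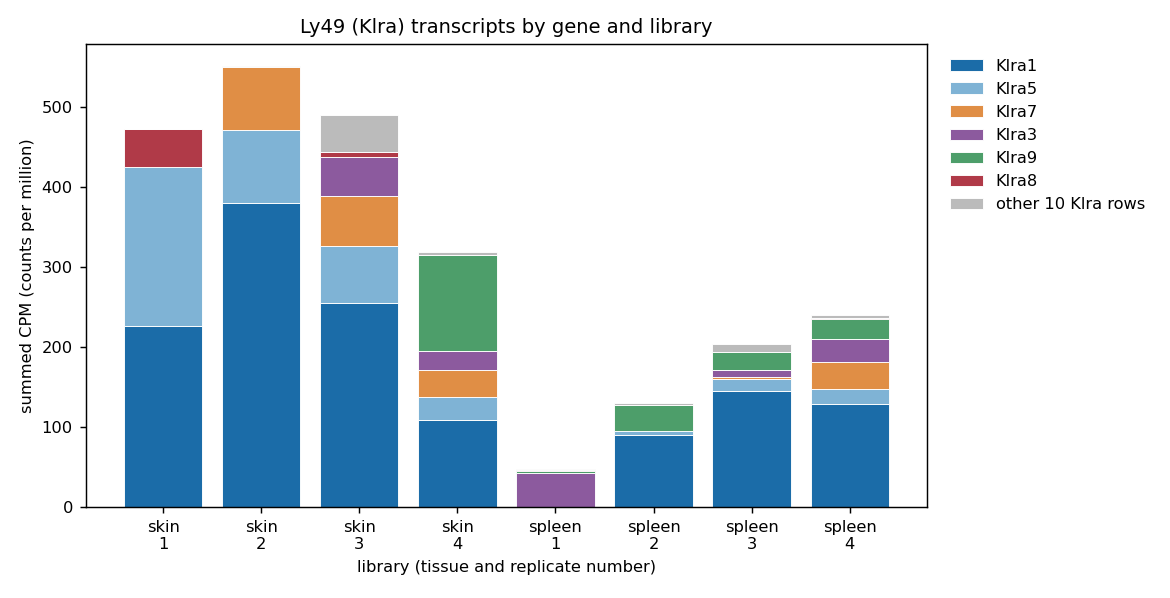
Stacked CPM of the Klra (Ly49) genes in each library, coloured by gene, with 10 minor rows combined in grey. The skin bars reach 319 to 551 CPM and the spleen bars 48.1 to 239 CPM, and the Klra1 block is missing from spleen replicate 1. Heights are not per length.

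Klra5 and Klra8 lie outside the 10 members. Klra5, the Ly49E gene, had 199, 91.2, 71.2 and 28 CPM in skin replicates 1 to 4, against 0, 5.35, 15 and 19 CPM in spleen replicates 1 to 4. Its skin values lay above its spleen values, and it was not called (log2 fold change 3.30 ± 1.88, SE; adjusted p of 0.651 by edgeR). None of its 75-base stretches occurred in another gene. Klra8, the gene of the activating receptor Ly49H, had 47.8 CPM in skin replicate 1 and at most 5.11 CPM in the other 7 libraries, and it did not pass the filter. Of the 26 other family rows matched in the table, 18 had a count in any library and 2 were tested, Klra5 and Klrb1f, of which 0 were called by edgeR, DESeq2 or limma-voom and 0 had an unadjusted edgeR p under 0.05. Klrb1f, a receptor of the NKR-P1 group, had 0, 0, 63.7 and 0 CPM in skin replicates 1 to 4, against 65.3, 69.3, 0 and 11.6 CPM in spleen replicates 1 to 4. Klrb1b, an inhibitory receptor of the same group, had 0, 7.70, 0 and 14.7 CPM in skin replicates 1 to 4, against 0, 0, 0 and 6.39 CPM in spleen replicates 1 to 4. Values of the tissues overlapped in both. The third Klrc gene, Klrc3, reached 8.33 CPM in skin replicate 1 and at most 0.892 CPM elsewhere. Klrg1, an inhibitory cadherin receptor of differentiated lymphocytes, had 16.5 CPM in spleen replicate 3 and no count in the other 7 libraries. The remaining family genes were likewise seen in few libraries or at low levels. Gm156, paired with Klrh1 in RefSeq, had 12.4 CPM in skin replicate 4 alone. Klra13-ps, Klra14 and Klra23 reached 12.6, 12.1 and 17.7 CPM, each in skin replicate 3, and at most 4.56 CPM in any other library. Klra4, Klra12, Klra15, Klra18, Klra19, Klra21 and Klra22 did not exceed 2.04 CPM.

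The genes were set in order by their level per kb of exon, using the exon lengths of the protein-coding GENCODE M21 transcripts. In skin the highest means per kb were those of Klra1 (145 ± 66.6 CPM per kb), Klrk1 (137 ± 40.5) and Klrc1 (74.9 ± 28.1), followed by Klrd1 (39.9), Klra7 (34.5), Klra9 (23.4), Klra3 (15), Klrc2 (13.4) and Klre1 (11.2), with Klrb1c at 0. In spleen the order was Klrd1 (90.9 ± 54.7 CPM per kb), Klrb1c (80.2 ± 51.2), Klrk1 (70.1 ± 17.8) and Klra1 (54.6 ± 38.9), followed by Klrc1 (26.0), Klre1 (21.3), Klra9 (16.3), Klra3 (16.1), Klra7 (7.14) and Klrc2 (3.97). Klrk1 over Klrc1 in skin was the only step between neighbours that exceeded the SD of both genes (n = 4 each). At every other step, in either tissue, the difference was smaller than at least 1 of the neighbours' SDs. The number of the 10 members with a count was 4, 5, 7 and 9 in skin replicates 1 to 4, against 8, 7, 10 and 10 in spleen replicates 1 to 4. Genes with a count over the whole table ranged from 5302 to 6012 per skin library and from 6415 to 10094 per spleen library, and the part of this difference in the members' zeros was not tested.

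**Figure D4:**
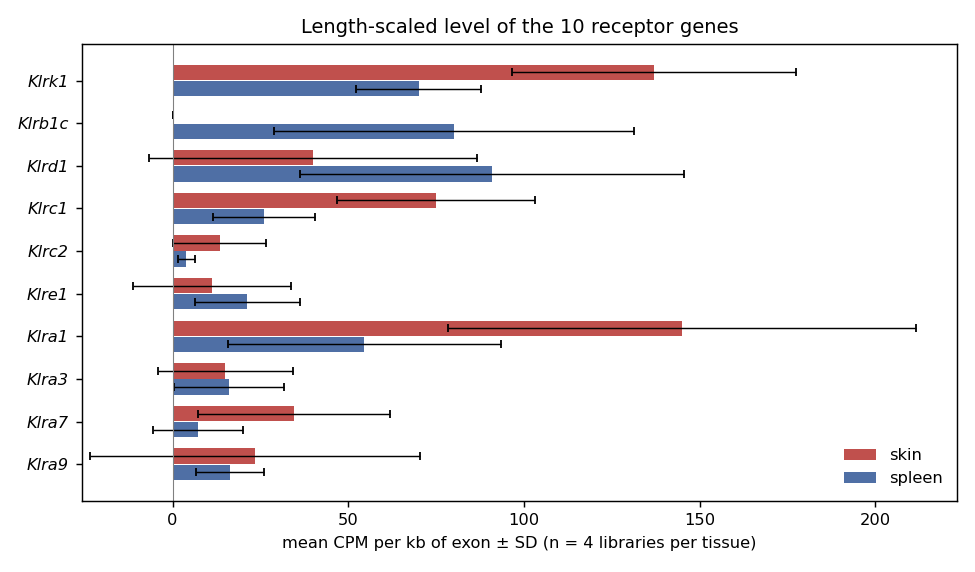
Mean CPM per kb of exon (bars) ± SD (lines, n = 4 libraries per tissue) of the 10 members in skin (red, upper bar) and spleen (blue, lower bar). Klra1 (145) and Klrk1 (137) lead in skin, Klrd1 (90.9) and Klrb1c (80.2) in spleen.

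Of 15 tested genes for adaptors and activating signalling 0 were higher and 1 was lower in skin, with a median log2 fold change of 0.017. At an unadjusted edgeR p under 0.05, 1 was higher and 2 were lower. The called gene was Hcst, the DAP10 adaptor of NKG2D. Hcst had 113, 107, 71.4 and 149 CPM in skin replicates 1 to 4, against 308, 418, 395 and 289 CPM in spleen replicates 1 to 4. All skin values lay below all spleen values, while Klrk1, whose product signals through this adaptor, had skin values above its spleen values. The log2 fold change of Hcst was -1.68 ± 0.39 (SE), with an adjusted p of 0.0473 by edgeR, and its call was kept without skin replicate 4 (adjusted p = 0.0429) but lost without any other library (adjusted p from 0.0842 to 0.145). Tyrobp, the DAP12 adaptor of NKG2C and of activating Ly49 receptors, had no count in skin and 0, 0, 20.8 and 19.3 CPM in spleen replicates 1 to 4, and was not tested. Fcer1g, the Fc receptor gamma chain that pairs with NK1.1, was chosen after its values were seen. It had 354, 251, 324 and 175 CPM in skin replicates 1 to 4, against 25.7, 108, 48 and 42.1 CPM in spleen replicates 1 to 4, without overlap. Its log2 fold change was 2.30 ± 0.62 (SE), with an adjusted p of 0.0699 by edgeR. DESeq2 and limma-voom called it higher (adjusted p = 0.0018 and 0.025), while its adjusted p ranged from 0.0634 to 0.355 over the edgeR alternatives. Among the most abundant of the list, the kinase genes Lck (890 ± 448 CPM in skin, against 2040 ± 684 CPM in spleen) and Fyn (548 ± 150 CPM in skin, 542 ± 103 CPM in spleen) and the adaptor gene Lcp2 (482 ± 340 CPM in skin, 581 ± 121 CPM in spleen) were not called. Lck was called lower without skin replicate 4 (log2 fold change -1.63; edgeR adjusted p = 0.0477).

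**Figure D5:**
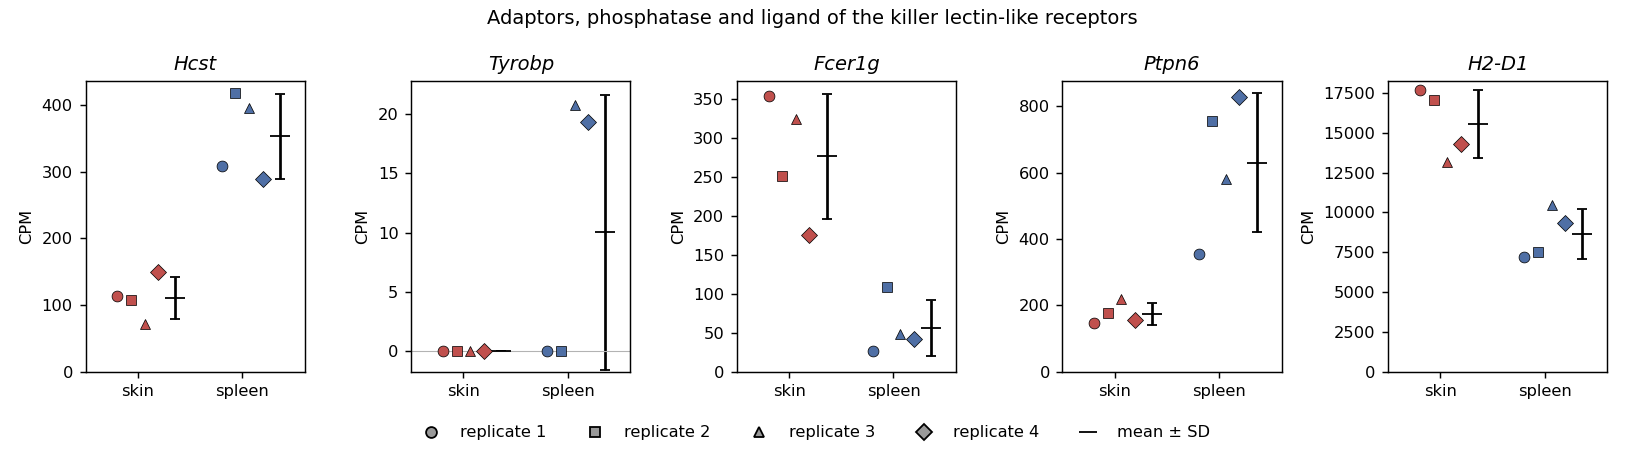
Level in CPM of the adaptor genes Hcst, Tyrobp and Fcer1g, the phosphatase gene Ptpn6 and the ligand gene H2-D1 in skin and spleen libraries, with black bars for mean ± SD. Hcst and Ptpn6 lie lower in all 4 skin libraries than in any spleen library, and Fcer1g and H2-D1 lie higher.

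On the inhibitory side, 0 of 9 tested signalling genes were higher and 1 was lower, with a median log2 fold change of -1.17. At an unadjusted edgeR p these were 0 and 3, and DESeq2 and limma-voom also called 0 higher. Ptpn6, which encodes SHP1, had 145, 177, 219 and 155 CPM in skin replicates 1 to 4, against 356, 756, 580 and 830 CPM in spleen replicates 1 to 4. The groups did not overlap, and the gene was lower in skin by edgeR (log2 fold change -1.86 ± 0.33, SE; adjusted p = 0.0247). The call of Ptpn6 was lost without skin replicates 1 or 2 or spleen replicates 2, 3 or 4 (adjusted p from 0.0562 to 0.098), and with limma-voom (adjusted p = 0.0835). The adaptor gene Dok2 (293 ± 337 CPM in skin, against 891 ± 176 CPM in spleen), the lipid phosphatase gene Inpp5d (152 ± 73.4 CPM in skin, 133 ± 33.8 CPM in spleen) and the kinase gene Csk (88.3 ± 61.9 CPM in skin, 168 ± 38.6 CPM in spleen) were not called. Dok2 was called lower without skin replicate 2, the highest of the skin libraries at 799 CPM (log2 fold change -2.87; edgeR adjusted p = 0.00381).

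Ligands of the receptors formed another list, in which 1 of 4 tested ligand genes was higher and 0 were lower in skin (median log2 fold change 0.23). The unadjusted edgeR counts were 2 and 0, and 0 were lower by DESeq2 or limma-voom. H2-D1, an MHC class I heavy chain read by Ly49 receptors, had 17700, 17100, 13200 and 14300 CPM in skin replicates 1 to 4, against 7170, 7490, 10500 and 9350 CPM in spleen replicates 1 to 4. Its log2 fold change was 0.85 ± 0.15 (SE), with an adjusted p of 0.025 by edgeR, and the call was lost in 5 of the 8 fits without a library, those without skin replicates 1 or 2 or spleen replicates 1, 2 or 4 (adjusted p from 0.06 to 0.0977), and with limma-voom (adjusted p = 0.263). All 4 skin values lay above all spleen values. H2-K1, another MHC class I heavy chain (7740 ± 1120 CPM in skin, against 5390 ± 987 CPM in spleen), and B2m, the light chain of MHC class I (5580 ± 574 CPM in skin, 5810 ± 533 CPM in spleen), were not called. The NKG2D ligand genes Raet1d and H60b had no count in skin and at most 2.82 CPM in spleen. Clec2d, the ligand gene of the Klrb1b product, had 73.9 CPM in skin replicate 3 and at most 0.143 CPM elsewhere. Cdh1, the E-cadherin gene, a ligand of the Klrg1 product, had 111, 1.21, 159 and 26.8 CPM in skin replicates 1 to 4 and no count in spleen, and was not tested.

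Of 11 tested genes of other NK receptors 1 was higher and 0 were lower in skin (median log2 fold change -0.44). The unadjusted edgeR counts were 1 and 1, and 0 were lower by DESeq2 or limma-voom. Cd7, an immunoglobulin-family receptor of T and NK cells, had 655, 513, 793 and 627 CPM in skin replicates 1 to 4, against 136, 97.2, 131 and 155 CPM in spleen replicates 1 to 4. Its log2 fold change was 2.32 ± 0.28 (SE), with an adjusted p of 0.00373 by edgeR, and the call was kept in all 8 fits that left out a library. Cd160, which binds HVEM, stood at 55.9 ± 54.6 CPM in skin, against 572 ± 208 CPM in spleen (SD, n = 4 each), without overlap, and was not called (edgeR adjusted p = 0.329). It was called without skin replicate 1 (log2 fold change -2.97; edgeR adjusted p = 0.049). The interleukin 15 receptor chain gene Il2rb (950 ± 254 CPM in skin, against 868 ± 86.2 CPM in spleen) and Cd96 (178 ± 195 CPM in skin, 268 ± 142 CPM in spleen) were not called. Among 13 tested regulators of the NK program 0 were higher and 0 lower (median log2 fold change -0.23). Their unadjusted edgeR counts were 1 and 2, DESeq2 called 1 higher and 1 lower, and limma-voom called 1 higher. Nfil3, a transcription factor gene needed for NK development and chosen after its values were seen, had 116, 483, 664 and 110 CPM in skin replicates 1 to 4, against 0, 0, 0 and 22.6 CPM in spleen replicates 1 to 4. Its skin values lay above its spleen values, and it was not called (log2 fold change 5.92 ± 2.40, SE; edgeR adjusted p = 0.32). Of the other regulators Tbx21, the T-bet gene, stood at 350 ± 237 CPM in skin, against 247 ± 171 CPM in spleen. The regulator gene Id2 stood at 1320 ± 259 CPM in skin, against 2260 ± 399 CPM in spleen without overlap, just short of the threshold (edgeR adjusted p = 0.05 after rounding), and Ets1 at 669 ± 287 CPM in skin, against 612 ± 137 CPM in spleen.

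The labelled cell type was checked by markers. Cd3e (399 to 958 CPM in skin and 470 to 571 CPM in spleen) and Zbtb16, the transcription factor gene of the iNKT lineage (20.5 to 75.7 CPM in skin and 5.24 to 144 CPM in spleen), had counts in all 8 libraries. Of the 9 iNKT and T cell markers, all tested, 1 was called higher in skin, the costimulatory receptor gene Icos (3300 ± 486 CPM in skin, against 621 ± 81.8 CPM in spleen, SD; edgeR adjusted p = 0.000361). The CD3 delta chain gene Cd3d was called lower (470 ± 83.9 CPM in skin, against 1110 ± 226 CPM in spleen, SD; edgeR adjusted p = 0.025), and 7 were not called. Cd247, the CD3 zeta chain gene, had no count in skin replicate 4 and spleen replicates 1 and 2, and Cd5 had none in skin replicate 1. Of 12 NK cell markers, among them Klra4, Klra8 and Tyrobp named above, 7 had a count in any library, summing to 81.7 to 558 CPM in skin and 53.8 to 159 CPM in spleen. The skin sums came mostly from the granzyme genes Gzmb (230 ± 151 CPM in skin, against 35.7 ± 10.6 CPM in spleen, SD) and Gzma (55 ± 65.7 and 28.9 ± 31.6 CPM). Neither granzyme gene was called, and 3 of the 7 markers had no count in skin. The defining NK markers Ncr1 and Eomes had no count in any library. The 4 markers shared with gamma delta T cells all had a count in some library, and 0 of 3 tested were called. They summed to 361 to 1550 CPM in skin and 69.4 to 157 CPM in spleen, led by 5830411N06Rik. That gene and Cd163l1 had counts in all 4 skin libraries and higher means in skin. Sox13 and Blk each had a count in only 1 skin library and a lower mean in skin than in spleen. Keratinocyte markers, 7 of 11 with a count, summed to 198 to 867 CPM in skin and 0 to 29.5 CPM in spleen, and Perp, 1 of 2 tested, was called higher (153 ± 55.5 CPM in skin and 0 in spleen, SD; edgeR adjusted p = 0.0328). B cell markers summed to 0 CPM in skin and 31.5 to 166 CPM in spleen, and erythroid markers to 0 to 2.12 CPM in skin and 111 to 274 CPM in spleen. The haemoglobin gene Hba-a1, the single erythroid marker tested, was called lower (0.106 ± 0.212 CPM in skin, against 119 ± 20.8 CPM in spleen, SD; edgeR adjusted p = 0.0473). The keratinocyte, B cell and erythroid sums did not overlap between the tissues, nor did the gamma delta sums. The part of these markers in the receptor results was not tested.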

How the data were processed

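The authors deposited RSEM expected counts, in which a read matching several genes is divided among them, for 22549 genes. The tool is named in the submitters' processing notes, along with FastQC, DESeq2 1.16.1 and the build mm9. No source used here names an aligner or annotation. Per the labels' protocols, cDNA came from an ultra-low-input full-length kit that does not mark strand, read as 75-base pairs.

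Columns were assigned by the names that the labels give as descriptions. Library totals were 7191131 to 9791973 expected counts. Expected counts were rounded to whole numbers and tested with edgeR 4.0.16 in R 4.3.3: filterByExpr (6920 genes left), TMM scaling, a robust quasi-likelihood fit with tissue as the only term (6 residual degrees of freedom, common dispersion 2.94) and Benjamini-Hochberg adjustment at 0.05 over all genes tested. CPM use TMM-scaled library sizes. A floor of 3 counts is 0.292 to 0.454 CPM and covers counting error only, since reads carry no molecular identifiers. SE was derived as the absolute log2 fold change divided by √F of that test. Alternatives included limma 3.58.1 (voom with quality weights) and DESeq2 1.42.0. The fit was tested on simulated counts that varied far less than these data, so that test does not show how the fit behaves here.

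The members and lists were chosen with earlier results of these data known. Genes named are all members, other family genes with a count, Klrg1, Hcst, Tyrobp, Zbtb16, Cd3e and Tbx21, called list genes (up to 3 per direction), the 2 most abundant uncalled genes per list and tissue, and the 3 genes most like Klrb1c and Klrd1. Fcer1g, Nfil3, the untested ligand genes and the markers were named after their values were seen. Transcripts and promoters come from GENCODE M21 and RefSeq (GRCm38), not the build of the counts, and serve for sequence, names and order.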

Additional observations from a re-analysis of the deposited data

Results flagged for a closer look

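Within a tissue of 4 libraries, 4 values stood so far from the other 3 that their gap to the nearest exceeded Dixon's 95% critical share of the range. These were Klre1 in skin replicate 4 (57.9 CPM, the others at 0), Klra9 in skin replicate 4 (120 CPM, the others at 0), Klra7 in spleen replicate 4 (33.3 CPM, the others up to 2.85) and Klrd1 in spleen replicate 2 (9.22 CPM, the others from 106). Chance gives such a gap in about 1 of 20 groups of normally distributed values, but a group with 3 zeros and 1 count, as for Klre1 and Klra9, always has it. Among all genes tested, zeros made up 41.9% of skin and 17.3% of spleen values where the other libraries averaged 10 to 50 CPM. The Klrd1 value in spleen replicate 2 was low but not 0. Where the other spleen libraries averaged 100 to 200 CPM, 5.2% of values were 0.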

How the results depend on the processing

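Of the 10 members, 0 were higher in skin under every alternative run, and 1, Klrb1c, was lower under all except the replicate block (0) and 3 of the fits without a library (range 0 to 1). With the replicate block, the adjusted p of Klrb1c was 0.246. The labels do not say whether same-numbered libraries share an animal. Same-numbered correlations of deviations were 0.00726, 0.0105, 0.00175 and 0.00431. Those of differently numbered libraries ran from -0.027 to 0.0435, so these values cannot decide whether the numbers pair the libraries. Over all genes, the higher count of 128 became 295 with DESeq2, 207 with limma-voom, 36 with the block and 47 to 102 without a library. The lower count of 248 became 48 with no filter, 447 with DESeq2, 500 with limma-voom, 14 with the block and 17 to 111 without a library.

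Among the lists, DESeq2 and limma-voom each called 1 adaptor gene higher. The lower adaptor gene Hcst was lost (0) with no filter, limma-voom and the block, and the count ranged from 0 to 2 without a library. Lower inhibitory genes numbered 2 with RLE, the 5 CPM filter and DESeq2, 0 with the block and 0 to 1 without a library. Higher ligand genes numbered 2 with RLE and DESeq2, 0 with limma-voom and the block, and 0 to 1 without a library. Without a library, 0 to 1 other NK receptor genes were lower. Regulators numbered 1 higher with DESeq2 and limma-voom, 1 lower (Id2) with upper quartile, the 5 CPM filter and DESeq2, and 0 to 1 of each without a library.

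Fitted directions turned for uncalled genes. With limma-voom these were Klra9 (-5.79), Fyn (-0.0961), Inpp5d (-0.108), Ets1 (-0.0763) and Cd3e (-0.0184). With the block they were Klra9 (-8.21), Fyn (-0.00746) and Zbtb16 (0.0741). Without a library, ranges crossed 0 for Klra3 (-1.30 to 0.56), Klra9 (-10.4 to 0.916), Fyn (-0.168 to 0.155), Lcp2 (-0.66 to 0.0396), Inpp5d (-0.141 to 0.423), Il2rb (-0.0287 to 0.263), Ets1 (-0.177 to 0.278), Tbx21 (-0.134 to 0.782), Zbtb16 (-0.987 to 0.123) and Cd3e (-0.209 to 0.256). The cause of these changes was not tested. Most members stood below the level at which a zero in 1 skin library is rare. The SE of these members leaves differences of several fold undetected, and the part of zeros in it was not tested.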
